A study of Mus musculus with 4 samples.

Results

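The epithelial-mesenchymal transition (EMT) genes described here are Vim, Fn1, Cdh1, Cdh2, Zeb1, Zeb2, Snai1, Snai2, Twist1 and Hmga2. They were chosen by name, and all 10 were found among the 32289 features of the count matrices. The study took tumours from the lungs of mice and measured single cells by 3′ RNA sequencing, in which each captured transcript is counted once by a unique molecular identifier (UMI). The alleles shared by all 4 libraries include p53frt, Rosa-FSF-CreERT2 and Hnf4aflox. Flp recombinase, delivered to the lungs by an adenovirus (mSPC-FlpO, a surfactant protein C promoter that drives Flp in alveolar type 2 cells), deletes p53 and turns on a tamoxifen-dependent Cre. Tamoxifen given 10 weeks later lets Cre delete the floxed Hnf4a, which encodes a transcription factor of liver and gut epithelium. The controls carry the same alleles and received vehicle, and cells were collected 2 weeks after the injection. Each suspension, vehicle or tamoxifen, gave 1 library before and 1 library after magnetic depletion of CD45+ immune and CD31+ endothelial cells. The number of animals and tumours behind a suspension is not given in the sources used here. Each group has a single library, so no p-value is given. Intervals are 95% intervals of counting error only, and a difference between libraries is not shown to be one between treatments.

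In EMT, epithelial cells lose adhesion and gain the motility and cytoskeleton of mesenchymal cells. E-cadherin (Cdh1) joins epithelial cells at adherens junctions, while N-cadherin (Cdh2), the intermediate filament vimentin (Vim) and the matrix protein fibronectin (Fn1) are typical of mesenchymal cells. The zinc finger factors Zeb1, Zeb2, Snai1 and Snai2 bind E-boxes in the Cdh1 promoter and repress it, and the helix-loop-helix factor Twist1 acts in the same programme. Hmga2 is a chromatin protein that binds AT-rich DNA, is abundant in the embryo and returns in many tumours. All of the mesenchymal genes are also used by normal fibroblasts, endothelial cells or leukocytes.

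Libraries held 6111 to 7358 cells after filtering, with 92644997 to 144994771 UMIs in all deposited barcodes. Values over the libraries are given below in the order vehicle before, vehicle after, tamoxifen before and tamoxifen after depletion. Epithelial-like cells numbered 1007, 6439, 1066 and 7047, and fibroblast-like cells 119, 196, 83 and 115. Levels are CPM, the UMIs of a gene per 1000000 UMIs, summed over the cells of a class or state. The targeted gene, Hnf4a, stood at 57.1, 55.1, 87.2 and 83.2 CPM in epithelial-like cells, so it was higher in the libraries labelled tamoxifen. The deleted exons are not stated, and 3′ tags can lie outside them, so this level does not check the labels. Library pairs shared 10 to 18 cell barcodes.

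Promoter windows of 250 bases upstream of the RefSeq start were matched for 5 of the 10 genes (Vim, Zeb2, Snai1, Twist1 and Hmga2, build GRCm38.p6). They were searched on both strands for CACCTG, the E-box core bound by the Zeb and Snai proteins, and for the TATA box TATAAA. Of 32851 RefSeq windows of the same length, 17.2% held CACCTG and 12.4% held TATAAA. Hmga2 and Twist1 were highest, among epithelial states after depletion, in a small state described below. Snai1 was the only matched gene with CACCTG. The windows of these 3 regulators are printed 5′ to 3′ on the gene's strand, with matches in capitals. They are Hmga2 at chr10:120476470-120476719 (minus), Twist1 at chr12:33957421-33957670 (plus) and Snai1 at chr2:167537945-167538194 (plus).
Hmga2: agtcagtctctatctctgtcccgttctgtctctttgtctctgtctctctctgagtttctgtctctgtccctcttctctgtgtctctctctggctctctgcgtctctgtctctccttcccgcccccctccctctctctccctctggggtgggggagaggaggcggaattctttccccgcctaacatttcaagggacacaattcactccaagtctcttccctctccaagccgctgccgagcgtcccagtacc
Twist1: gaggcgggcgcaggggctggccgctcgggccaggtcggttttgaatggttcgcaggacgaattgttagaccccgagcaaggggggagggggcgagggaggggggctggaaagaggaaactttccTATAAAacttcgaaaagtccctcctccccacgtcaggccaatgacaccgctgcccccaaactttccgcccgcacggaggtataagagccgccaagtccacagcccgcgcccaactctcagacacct
Snai1: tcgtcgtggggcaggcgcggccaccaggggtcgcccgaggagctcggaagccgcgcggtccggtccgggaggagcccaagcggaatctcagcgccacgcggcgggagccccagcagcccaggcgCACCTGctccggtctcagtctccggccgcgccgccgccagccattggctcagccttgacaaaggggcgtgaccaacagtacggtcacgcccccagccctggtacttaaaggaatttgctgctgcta
The Hmga2 window held neither motif, the Twist1 window held 1 TATAAA, and the Snai1 window held 1 CACCTG beginning 126 bases upstream of the start. The Vim window, which lies inside the longer GENCODE gene span, also held 1 TATAAA, and none of the 4 Zeb2 windows held either motif. Among these Zeb2 windows, only chr2:45117443-45117692 lies outside the GENCODE span of Zeb2. The windows at chr2:45113254-45113503 and chr2:45113280-45113529 overlap each other. A match is a description of letters, not evidence of a bound site.

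The first comparison set epithelial-like against fibroblast-like cells within each library. Cdh1 was the 1 gene of the 10 that was over 2-fold higher in epithelial-like cells of every library, by 6.38- to 20.9-fold. Vim, Fn1, Cdh2, Zeb1, Zeb2, Snai1, Snai2 and Twist1 were lower in every library, by 3.19-fold (Cdh2, vehicle before) to 394-fold (Zeb2, tamoxifen after). Hmga2 was higher in epithelial-like cells before depletion and close between the classes after it. A gene was called apart at a difference of 2-fold or more, with a pseudocount of 1 CPM and at least 10 CPM in either pool, in the same direction in all 4 libraries. By this rule 1 of the 10 genes was higher and 8 were lower, where 11.7% and 13.8% of all 9688 genes tested passed in those directions (25.6% in either). Cdh2, Zeb1, Zeb2, Snai1, Snai2 and Twist1 pass the 10 CPM minimum through the fibroblast-like cells alone in 1 or more libraries, so their place in the count is no support. The median log2 ratio of the 10 genes was -3.88, -3.88, -4.16 and -3.95, with genes at 0 UMIs set at a floor of 3 UMIs -4.14, -3.88, -4.54 and -3.95, beside 0.059, 0.044, 0.087 and 0.037 for all genes tested in each library.

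**Figure D1:**
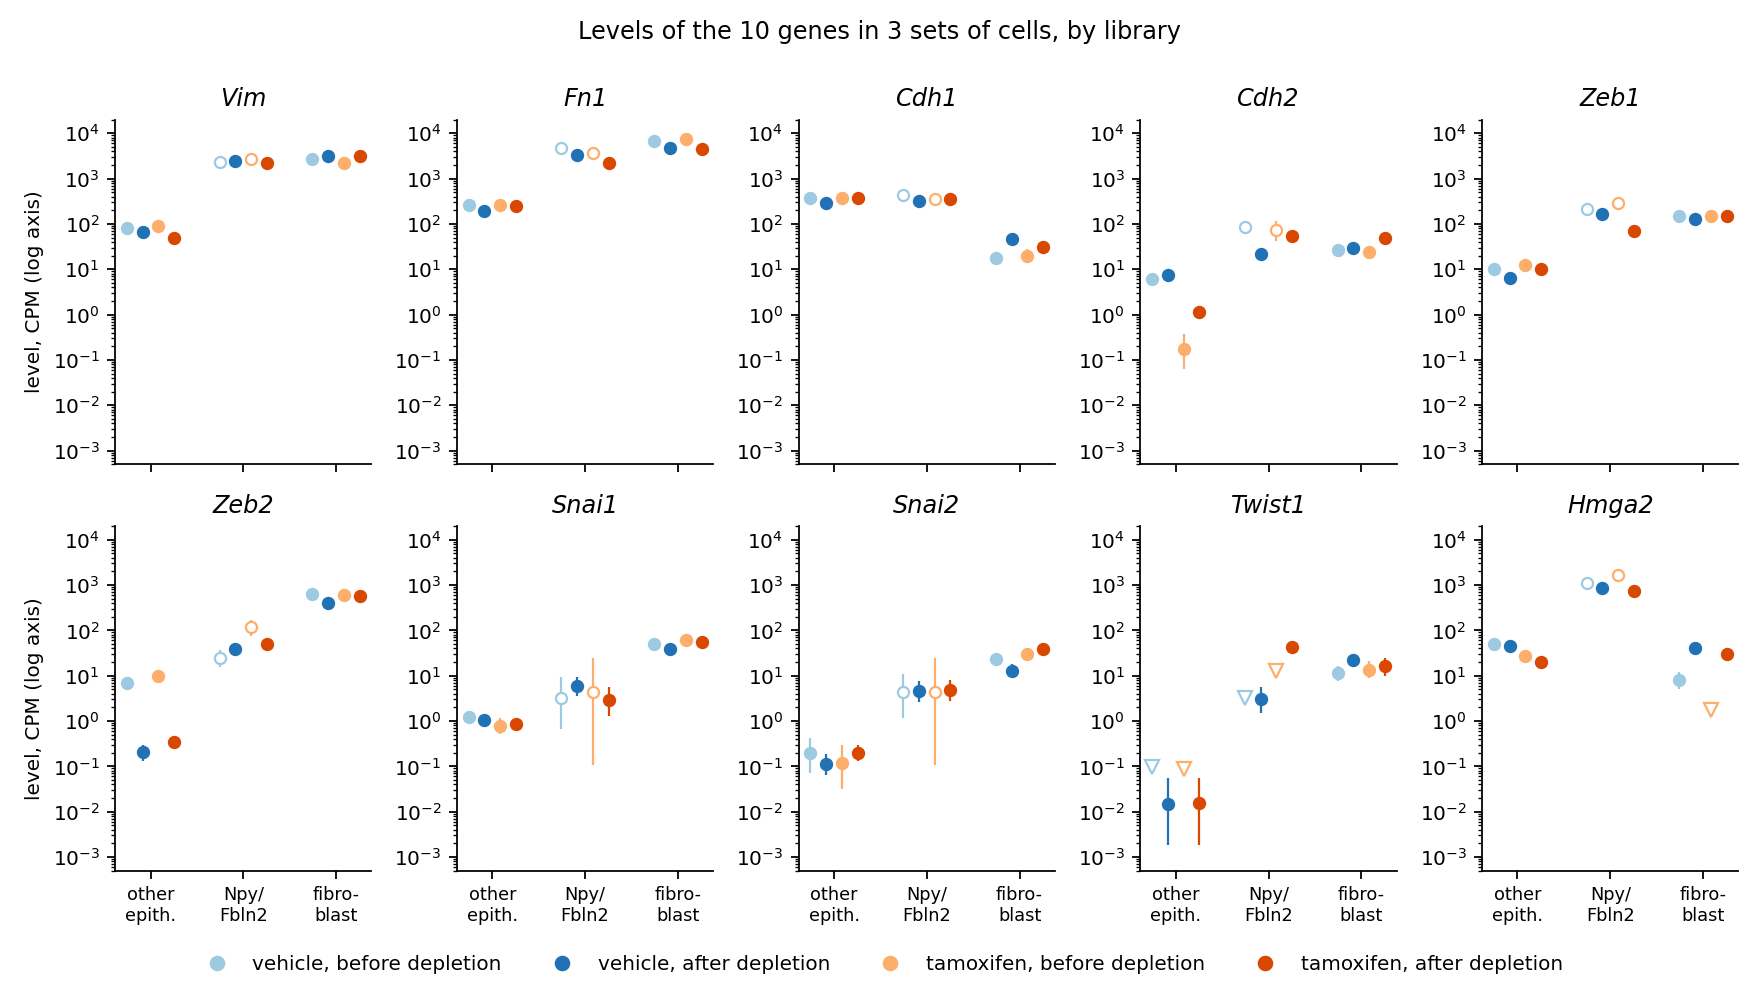
Levels of the 10 genes (y axis, CPM, log scale) in other epithelial-like cells, in the epithelial state led by Npy and Fbln2 and in fibroblast-like cells, with 1 point per library and bars for the 95% Poisson interval. Open circles are pools of under 50 cells, and triangles mark the level of 3 UMIs where none was counted. Cdh1 is level between both epithelial sets and low in fibroblast-like cells, while Vim, Fn1 and Zeb1 of the Npy and Fbln2 state sit near the fibroblast-like points.

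On GRCm38 with the GENCODE M21 annotation, the genes are Vim at chr2:13573927-13582826, Fn1 at chr1:71585520-71653200, Cdh1 at chr8:106603351-106670246, Cdh2 at chr18:16588877-16809246, Zeb1 at chr18:5591860-5775467, Zeb2 at chr2:44983632-45117395, Snai1 at chr2:167538195-167542814, Snai2 at chr16:14705852-14709385, Twist1 at chr12:33957671-33959829 and Hmga2 at chr10:120361275-120476469. Fn1, Cdh2, Zeb2 and Hmga2 lie on the minus strand and the others on the plus strand.

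Vim stood at 147, 124, 108 and 98.0 CPM in epithelial-like cells and at 2669, 3181, 2243 and 3158 CPM in fibroblast-like cells. It was 18.2-, 25.6-, 20.8- and 32.2-fold lower in the epithelial-like cells. Fn1 stood at 385, 263, 283 and 292 CPM against 6709.7, 4827, 7426 and 4599 CPM, a difference of 15.8- to 26.2-fold. No epithelial-like level of Vim or Fn1 reached the lowest fibroblast-like one. Cdh1 stood at 369.8, 297, 367 and 363 CPM in epithelial-like cells. In fibroblast-like cells it was counted 50, 121, 33 and 39 times, which is 17.7, 46.6, 19.7 and 30.4 CPM. Surfactant protein C (Sftpc), which fibroblasts lack, stood at 182, 13578, 5406 and 6376 CPM in the same fibroblast-like cells, and it was lowest and highest in the same 2 vehicle libraries as Cdh1. The part of such carried-over epithelial RNA in the fibroblast-like Cdh1 level was not tested.

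Cdh2 was low in both classes, with 8.45, 7.82, 0.663 and 2.34 CPM in epithelial-like and 26.9, 29.6, 24.5 and 49.9 CPM in fibroblast-like cells. Its epithelial-like level was higher in both vehicle libraries than in both libraries labelled tamoxifen. Zeb1 stood at 16.1, 9.94, 14.6 and 11.4 CPM against 150.0, 128, 149 and 152 CPM, so it was 9.32- to 13.4-fold lower in epithelial-like cells. Zeb2 stood at 7.42, 1.10, 10.4 and 1.48 CPM against 628, 401, 604 and 584 CPM. Its epithelial-like level was higher in both libraries that still held immune cells. Snai1 (1.26, 1.15, 0.807 and 0.913 CPM) and Snai2 (0.314, 0.221, 0.144 and 0.307 CPM) were near the lower end of what could be counted in epithelial-like cells. In fibroblast-like cells Snai1 stood at 51.1, 38.5, 62.0 and 55.4 CPM and Snai2 at 23.8, 12.7, 29.8 and 39.0 CPM. Twist1 had 0, 12, 0 and 135 UMIs in epithelial-like cells and 11.3, 21.9, 13.7 and 16.4 CPM in fibroblast-like cells. It was at least 119.7- and at least 158-fold lower in epithelial-like cells before depletion, and 248- and 16.2-fold lower after it.

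Hmga2 went the other way from the mesenchymal genes, with 81.1, 65.2, 37.5 and 36.5 CPM in epithelial-like and 8.16, 40.0, 0 and 30.4 CPM in fibroblast-like cells. It was 9.94-fold (6.61 to 15.7) and at least 21-fold higher in epithelial-like cells before depletion. After depletion it was 1.63-fold (1.34 to 2.0) higher with vehicle, and with tamoxifen the log2 interval ran from -0.19 to 0.75. Epithelial-like cells made up 14.2%, 93.0%, 17.4% and 95.8% of the cells. The part of carried-over epithelial RNA in the fibroblast-like Hmga2 level was not tested. The fibroblast-like cluster was led by Mgp, Col1a2, Col3a1, Col1a1, Eln, Tagln and Des. It also held 4224, 5881, 5794 and 7106 CPM of a list of 10 mural cell markers, so it is not a pure fibroblast class.

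Ordered over all cell classes, the genes had their highest levels in different cells. Vim was highest in fibroblast-like or endothelial-like cells of every library (2513, 3506, 2755 and 2835 CPM in endothelial-like cells), and these neighbours did not overlap in their counting intervals. Fn1, Snai1, Snai2 and Twist1 were highest in fibroblast-like cells of every library. Snai1 came next in endothelial-like cells (32.3, 31.1, 35.5 and 45.7 CPM), with intervals that overlapped the fibroblast-like ones after depletion. Cdh2 in endothelial-like cells (35.4, 23.0, 34.9 and 45.7 CPM) overlapped the fibroblast-like level in all 4 libraries. Zeb1 was highest before depletion in T cell-like cells (565 and 376 CPM), with endothelial-like cells next at 406 and 319.7 CPM. Zeb2 was highest before depletion in NK cell-like cells (954 and 853 CPM), followed by monocyte or macrophage-like cells (650.3 and 613 CPM), which overlapped the fibroblast-like level. Cdh1 was highest in epithelial-like cells of every library. Before depletion the pooled unnamed clusters were next, at 326 and 211 CPM, and they overlapped the epithelial-like level with vehicle. Hmga2 was also highest in epithelial-like cells of every library, and there it overlapped its neighbour, the fibroblast-like cells, in the tamoxifen library after depletion. No immune class exceeded 5.03 CPM of Hmga2.

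The epithelial-like cells were then split into 13 states, clustered without the 10 genes and without 65 further genes of related lists. Several of the mesenchymal genes were unevenly spread over the states, while Cdh1 was counted in all of them. Over state and library pools of at least 50 cells, leaving aside the small state described next, Cdh1 ran from 206 to 680.2 CPM. Apart from a state led by immune genes, with 303 and 451 CPM of Vim before depletion, Vim, Fn1 and Hmga2 were most abundant in a state led by Mcpt1 and Tff1, genes of a mast cell protease and a gastric trefoil peptide (140, 1287, 126 and 1155 cells). Cdh2 was most abundant there with vehicle, at 20.4 and 16.4 CPM. In cells resembling alveolar type 2 cells (371, 1635, 183 and 1176 cells) Vim, Fn1 and Hmga2 were close to nil while Cdh1 was not.

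**Figure D2:**
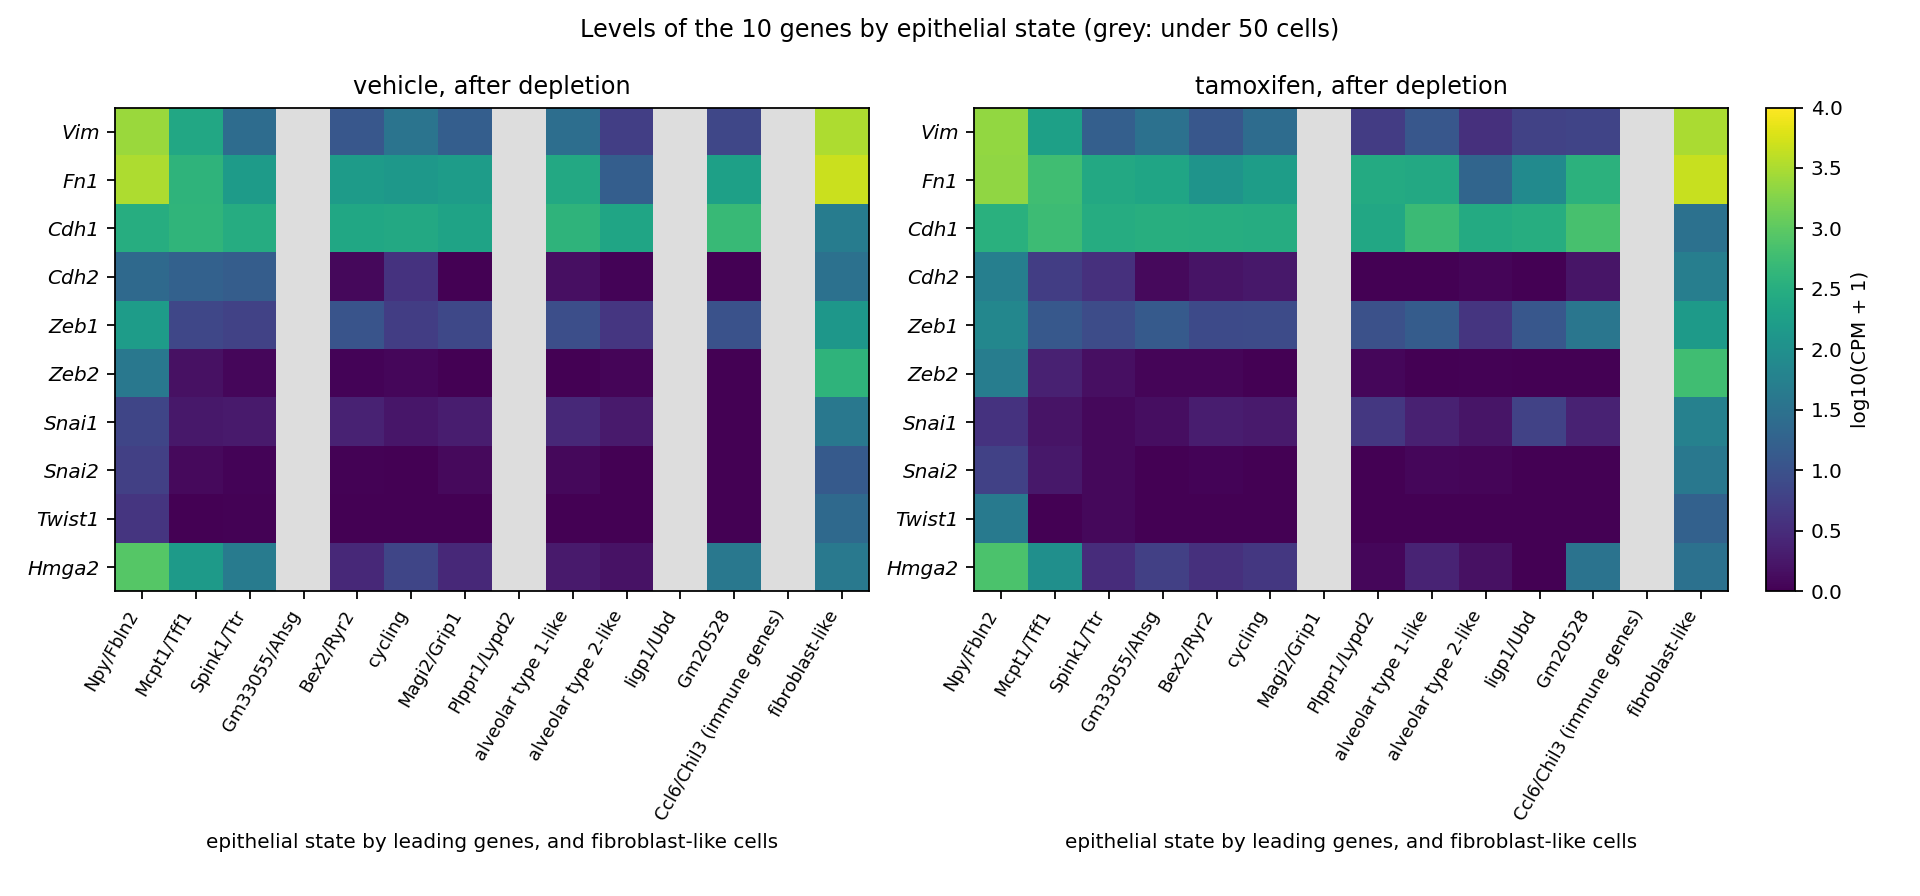
Heat map of the 10 genes (rows) over the epithelial states and fibroblast-like cells (columns) of both libraries after depletion, coloured by log10(CPM + 1), with grey for states of under 50 cells. The state led by Npy and Fbln2 carries the highest values among the epithelial states of Vim, Fn1, Zeb1, Zeb2, Twist1 and Hmga2, while the Cdh1 row varies less.

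In the Mcpt1 and Tff1 state Vim stood at 267, 249, 259 and 187 CPM, and in type 2-like cells at 12.6, 4.52, 8.10 and 2.61 CPM. Fn1 stood at 572, 404, 540.3 and 599 CPM against 8.80, 14.7, 26.2 and 19.1 CPM. Hmga2 stood at 189, 151, 176 and 95.7 CPM in the Mcpt1 and Tff1 state, while it did not exceed 5.92 CPM in type 2-like cells. These 3 genes were therefore each higher in the Mcpt1 and Tff1 state in every library, with no overlap. Cdh1 differed less between those states, at 546, 419, 487 and 552 CPM against 283, 223, 285 and 275 CPM. Cells resembling alveolar type 1 cells carried Fn1 at 272, 263, 312 and 262 CPM with only 9.89, 26.6, 23.3 and 11 CPM of Vim, so Fn1 and Vim did not go together there. A state led by Spink1 and Ttr carried 155 and 256 CPM of Fn1 after depletion and 25.3 and 15 CPM of Vim. The Mcpt1 and Tff1 state also held 178, 201, 167 and 151 CPM of the mural marker list and 9.52, 10.1, 7.06 and 10.8 CPM of the fibroblast marker list, and their part in its levels was not tested.

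One small state of 230 cells, 1.59%, 1.72%, 0.375% and 1.40% of the epithelial-like cells, stood apart on these genes. It was led by Npy, Fbln2, Inhba, Fst, Ctla2a, Xirp2, Sox11, Has2, Cdh6 and Kcnn4, and it could not be named from markers. Vim, Fn1, Zeb1, Zeb2, Cdh2 and Hmga2 were all higher in it than in the other epithelial-like cells of both libraries after depletion. Cdh1 was within 1.06-fold of the pool of those other cells, but not of each state in it. After depletion Cdh1 stood at 314 CPM in the small state with vehicle and 346 CPM with tamoxifen. This was below the Mcpt1 and Tff1 state (419 and 552 CPM) and above type 2-like cells (223 and 275 CPM). Against fibroblast-like cells, Vim was 1.27- and 1.43-fold lower in it, and Cdh1 and Hmga2 were 6.74- to 24.4-fold higher. It held 16 and 4 cells before depletion and 111 and 99 cells after it, so the comparisons use the libraries after depletion.

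By the 2-fold rule, 6 of the 7 genes tested were higher in the Npy and Fbln2 state and none was lower in both libraries after depletion, where 9.01% of 9260 genes were higher. Zeb1, Zeb2 and Cdh2 pass the 10 CPM minimum of that test through this state alone, so their place in the count is no support. The state was singled out because it stood apart on these same genes, so the count only describes it. Snai1, Snai2 and Twist1 did not reach the minimum in both libraries. The median log2 ratio of all 10 genes, including the untested Snai1, Snai2 and Twist1, was 3.22 and 3.90, beside 0.11 and 0.12 for all genes tested. At a coarser clustering resolution of 0.3 the state merged into one of 3235 cells, in which 3 of the genes (Vim, Fn1 and Hmga2) were higher. At a finer resolution of 1 all 230 cells also lay in a larger state, of 842 cells, in which the same 6 genes were higher. The state was thus separate at the resolution used here but not at either of these. With states clustered on all variable genes, 210 of the 230 cells lay in a state of 211 cells, also led by Npy and Fbln2.

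Vim stood at 2497 and 2210.4 CPM in the state after depletion and at 67.2 and 47.7 CPM in the other epithelial-like cells, a difference of 37.2-fold (36.1 to 38.3) and 46.3-fold (44.8 to 48.0). Before depletion its 16 and 4 cells carried 2328 and 2709 CPM of Vim. Fn1 stood at 4609, 3263, 3686 and 2189 CPM in the state, and after depletion it was 17.1- and 8.88-fold above the other epithelial-like cells (191 and 246 CPM). Hmga2 stood at 1097, 875, 1631 and 743 CPM and was 19.1- and 37.8-fold above the others after depletion. The pooled levels of all 3 genes were thus high in every library, but those before depletion rest on few cells. Of the 4 cells, the highest held 67.3% of the Vim, 63.0% of the Fn1 and 35.0% of the Hmga2 UMIs. Of the 16 cells, the 5 highest for each gene held 64.7%, 63.6% and 60.7%. Cdh1 stood at 431, 314, 355 and 346 CPM in the state and at 368, 296, 367 and 363 CPM in the other cells. After depletion its log2 intervals (-0.009 to 0.17 and -0.16 to 0.018) both held 0.

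Among the transcription factors, Zeb1 stood at 162 and 70.2 CPM after depletion, 25.9- and 7.05-fold above the other epithelial-like cells. Zeb2 stood at 38.3 and 49.2 CPM, against 0.204 and 0.345 CPM in the others. Snai1 (5.97 and 2.90 CPM) was 5.78- and 3.35-fold, and Snai2 (4.71 and 4.83 CPM) 41.7- and 24.2-fold, above the others on 9 to 19 UMIs in the state. Twist1 had 10 UMIs in the state with vehicle and 133 with tamoxifen, which is 3.14 and 42.8 CPM, while all other epithelial-like cells of those libraries together held 2 UMIs in each. Nearly all epithelial-like Twist1 UMIs were therefore in this state. The ratio over the other cells rests on those few counts, at 208-fold (44.4 to 1956) and 2794-fold (758 to 23309). Cdh2 stood at 22.0 and 52.8 CPM, which is 2.94- and 46.2-fold above the others.

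Set against the fibroblast-like cells of the same 2 libraries, which also serve the first comparison, 2 of 10 genes were higher in the Npy and Fbln2 state (Cdh1 and Hmga2) and 3 were lower (Zeb2, Snai1 and Snai2), where 26.1% of all genes tested were apart. Snai1 and Snai2 pass the minimum through the fibroblast-like cells alone, so their place in the count is no support. The median log2 ratio was -0.48 and -0.79, beside 0.12 and 0.16 for all genes. Zeb2 was 10.5- and 11.9-fold lower, Snai1 6.44- and 19.1-fold lower and Snai2 2.69- and 8.08-fold lower in the state. Fn1 was 1.48- and 2.10-fold lower. Zeb1 was 1.27-fold higher with vehicle and 2.17-fold lower with tamoxifen, and Twist1 6.98-fold lower with vehicle and 2.61-fold higher with tamoxifen, so for these factors the libraries went opposite ways. The Cdh2 intervals of the log2 ratio held 0 in both libraries.

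Epithelial genes were counted in the same state. Krt8 stood at 3237, 4127, 2829.7 and 2733 CPM, above the 1379, 1709, 1282 and 1389 CPM of all epithelial-like cells. Epcam stood at 1385, 1590.3, 372 and 1065 CPM and is not compared with other cells here. A list of epithelial regulators, described below, went the other way from Krt8. Its median log2 ratios over the other epithelial-like cells after depletion were -0.92 and -0.96, beside 0.11 and 0.12 for all genes tested. The fibroblast markers summed to 16.3, 11.6, 0 and 83 CPM over 11 genes, of which 7, 6, 11 and 1 were at 0, against 10740.2, 8074, 8939 and 8742 CPM in fibroblast-like cells. In the tamoxifen library after depletion, 69.7% of the 109 Col1a1 UMIs of the state came from 1 cell. The mural markers summed to 47.7, 34.9, 34.6 and 215 CPM over 10 genes, with 3, 3, 8 and 1 at 0. Of 6 mesothelial markers, only Msln and Wt1 are given here, so the list is not read in either direction. Msln stood at 128, 169, 247 and 279 CPM, while Wt1 was at 0 in every library. The immune marker list summed to 252, 7.54, 26.0 and 4.51 CPM. Cells of the state were deep, with median UMIs of 55842, 27080, 51259 and 27084 against 26781, 18500, 29245 and 16894 in all epithelial-like cells. Their median doublet scores of 0.0835, 0.0521, 0.0615 and 0.0594 lay beside 0.0523, 0.0538, 0.0516 and 0.0507. The part of depth and of merged cells in the state's levels was not tested. When the cells were clustered on all variable genes, 229 of the 230 cells fell in a cluster that took no class name, so their place in the epithelial-like class rests on the clustering without these genes.

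Within the state, Vim was counted in 86 of 111 and 78 of 99 cells after depletion, Fn1 in 111 and 97, Cdh1 in 107 and 92, and Hmga2 in 96 and 85. The 5 cells with most Vim held 26.2% and 29.4% of its UMIs, so no single cell carried the level. Zeb1 was counted in 82 and 48 cells, Zeb2 in 32 and 44, Cdh2 in 19 and 41, Snai1 in 14 and 7, and Snai2 in 11 and 13. Twist1 was counted in 3 and 20 cells, and with tamoxifen 5 cells held 60.2% of its 133 UMIs. Any of the 5 factors was counted in 78.4% and 71.7% of the cells, and more than 1 factor in 37.8% and 43.4%. A factor was counted together with Cdh1 in 83 of the 111 and 66 of the 99 cells. These shares are at full depth and are not compared with other cells.

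**Figure D3:**
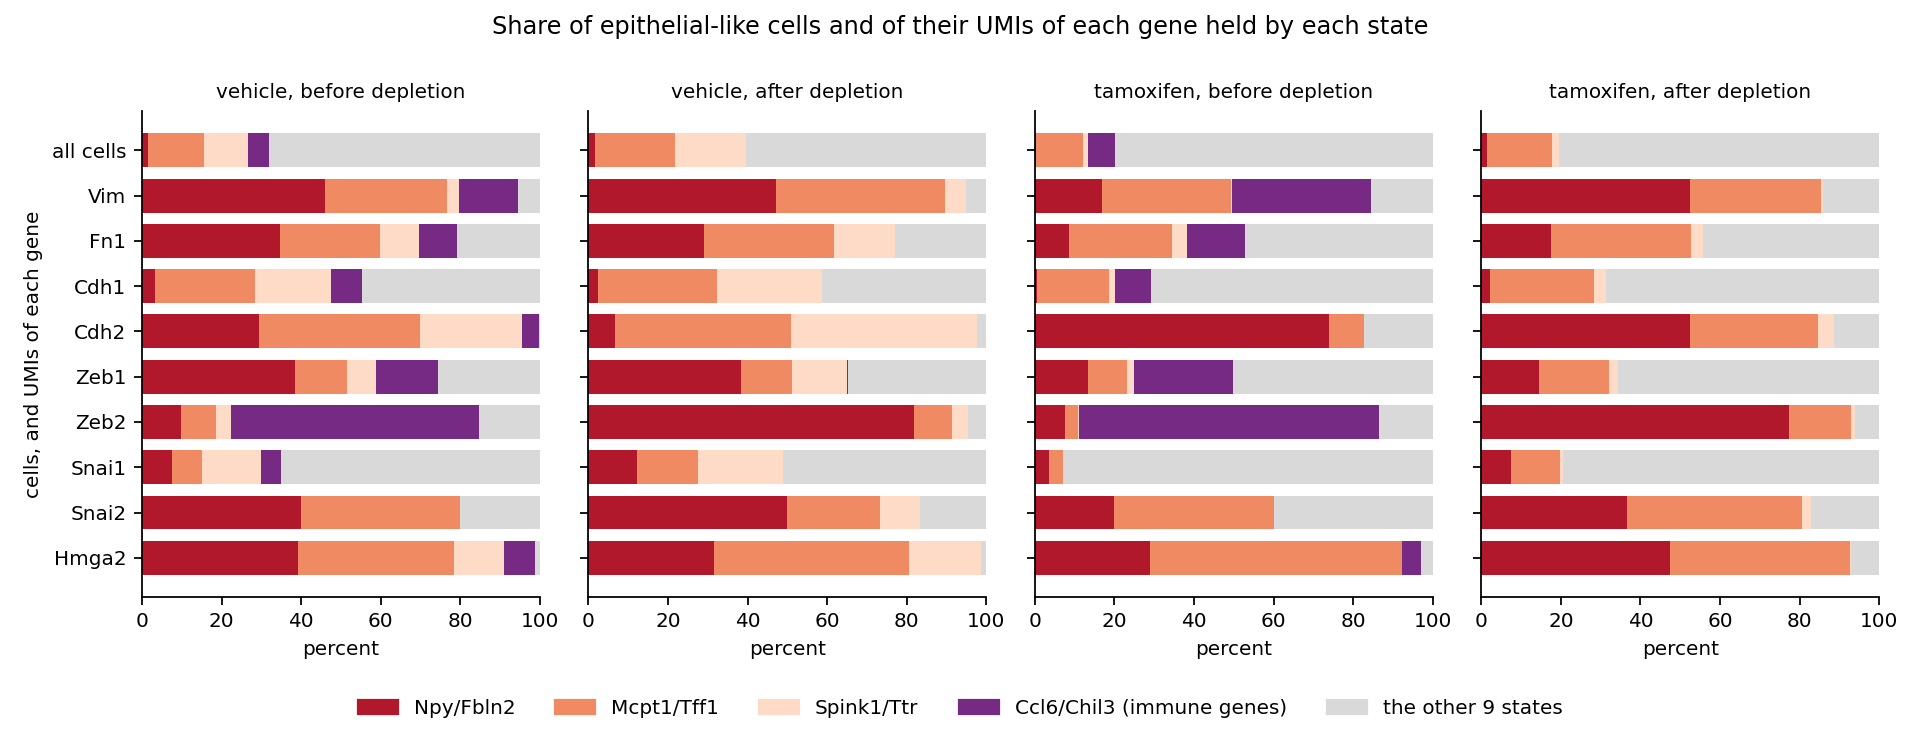
Stacked horizontal bars for the 4 libraries, giving the percent (x axis) of epithelial-like cells and of the UMIs of each gene (1 bar per gene on the y axis) that fell in the named states, with the other states in grey and Twist1 left out for its few UMIs. The Npy and Fbln2 state holds under 2% of the cells of any library, but 46.0%, 47.1%, 16.8% and 52.4% of the Vim UMIs.

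As a share of the class, the Npy and Fbln2 state held 46.0%, 47.1%, 16.8% and 52.4% of all epithelial-like Vim UMIs. It held 39.3%, 31.5%, 29.0% and 47.4% of the Hmga2 UMIs and 34.7%, 29.1%, 8.68% and 17.5% of the Fn1 UMIs. The Cdh1 share was 3.38%, 2.48%, 0.645% and 2.22%. The Mcpt1 and Tff1 state, with 13.9%, 20%, 11.8% and 16.4% of the cells, held a further 30.6%, 42.4%, 32.5% and 32.9% of Vim and 39.2%, 49.0%, 63.3% and 45.2% of Hmga2. The state led by the immune genes Ccl6 and Chil3 held 14.7% of the Vim UMIs in the vehicle library before depletion and 35.0% in the tamoxifen library before depletion, where it held more Vim than either of the other states. The tamoxifen library before depletion, with 4 cells of the Npy and Fbln2 state, had the lowest shares there of Vim, Fn1, Cdh1 and Hmga2. Its Cdh2 share was instead the highest, at 73.9% beside 29.4% and 6.59% with vehicle and 52.4% with tamoxifen after depletion. Of those 17 Cdh2 UMIs, 94.1% came from 1 cell.

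To count cells at 1 depth, each cell was thinned to 2000 UMIs and shallower cells were left out (23, 72, 7 and 44 epithelial-like cells). A Cdh1 UMI was then present in 48.2%, 41.2%, 46.7% and 49.0% of epithelial-like cells and in 0.654%, 1.84%, 2.0% and 2.48% of endothelial-like cells, which should lack it (median depths before thinning 13978, 8373, 10111 and 7293 UMIs). A Vim UMI was present in 7.72%, 5.61%, 8.22% and 5.40% of epithelial-like cells, 32.7%, 17.1%, 36.6% and 16.7% without thinning, and in 90.8% to 95.7% of fibroblast-like cells. In the Npy and Fbln2 state after depletion, 64.9% and 65.7% of cells had a Vim UMI, 95.5% and 86.9% an Fn1 UMI, 56.8% and 60.6% an Hmga2 UMI, and 40.5% and 48.5% a Cdh1 UMI. In the Mcpt1 and Tff1 state the Vim shares were 19.0%, 14.8%, 23.0% and 14.7%. In type 2-like cells they were 2.49%, 0.619%, 1.10% and 0.427%. An Hmga2 UMI was present in 4.57%, 5.03%, 1.51% and 2.37% of epithelial-like cells and in at most 0.667% of endothelial-like cells.

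**Figure D4:**
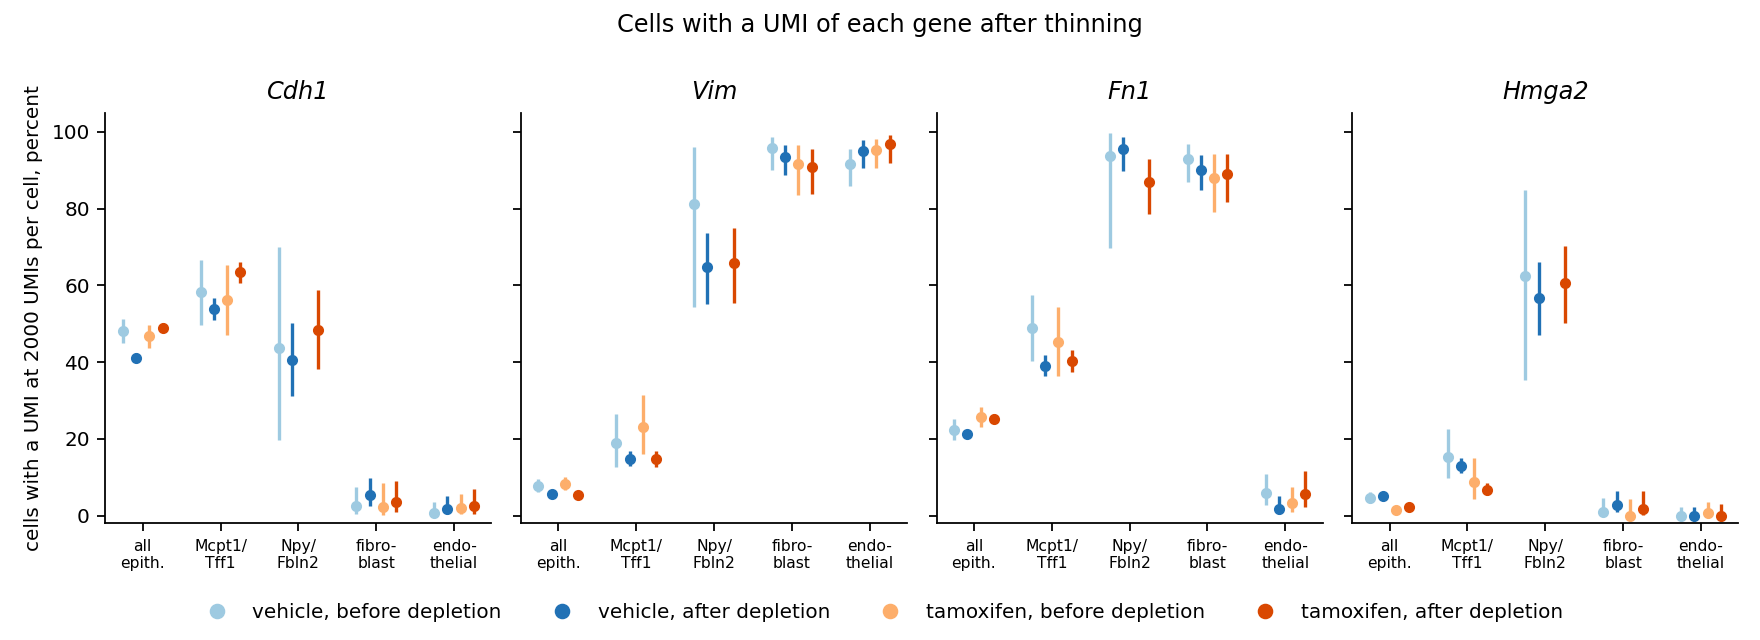
Percent of cells with at least 1 UMI of Cdh1, Vim, Fn1 and Hmga2 (y axis) after thinning to 2000 UMIs per cell, in 5 sets of cells and 4 libraries, with 95% Clopper-Pearson intervals and no point for pools of under 10 cells. The Npy and Fbln2 state has the Cdh1 share of epithelial-like cells together with high Vim, Fn1 and Hmga2 shares, while endothelial-like cells have high Vim shares alone.

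Cdh1 and Vim were counted in the same thinned cell in 3.76%, 2.45%, 4.25% and 2.77% of epithelial-like cells, where the product of the single shares was 3.72%, 2.31%, 3.84% and 2.64%. In the Npy and Fbln2 state after depletion, 24.3% (16.7 to 33.4) and 23.2% (15.3 to 32.8) of the cells had both, and the products were 26.3% and 31.8%. Fibroblast-like cells had both in 0%, 4.42%, 2.41% and 1.83%. Krt8 and Vim were counted together in 61.3% and 59.6% of the cells of the state, and Vim with Col1a1 in 0.901% and 1.01%, against 77.9% and 74.3% of fibroblast-like cells of those libraries. Vim and Hmga2 were counted together in 1.52%, 0.974%, 0.378% and 0.70% of epithelial-like cells, above the products of 0.353%, 0.282%, 0.124% and 0.128%. Without the Npy and Fbln2 state these values were 0.723%, 0.352%, 0.0948% and 0.188%, against 0.235%, 0.187%, 0.0981% and 0.0696%. Inside the state the observed shares, 36.0% and 36.4%, lay below the products of 36.8% and 39.8%. Epithelial-like cells with at least 3 Vim UMIs after thinning numbered 23, 140, 19 and 90, and of these 43.5%, 37.9%, 10.5% and 54.4% were in the Npy and Fbln2 state and 47.8%, 55.7%, 47.4% and 40.0% in the Mcpt1 and Tff1 state. The immune-gene-led state held 2 of the 23 and 6 of the 19 such cells before depletion (8.70% and 31.6%).

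The next comparison set the libraries labelled tamoxifen against the vehicle libraries in all epithelial-like cells, before and after depletion. None of the 5 genes tested in both pairs (Vim, Fn1, Cdh1, Zeb1 and Hmga2) was apart by 2-fold or more in both, where 1.32% of 9042 genes were. Hmga2 was lower with tamoxifen in both pairs, at 37.5 against 81.1 CPM before (2.16-fold, 2.02 to 2.32) and 36.5 against 65.2 CPM after depletion (1.79-fold, 1.73 to 1.85). Cdh2, which is below 10 CPM in this class and so was not tested, was 12.7-fold (8.32 to 20.5) and 3.34-fold (2.94 to 3.80) lower. Before depletion Hmga2 was called lower among 6 genes tested (1.45% of all genes lower), and after depletion none of 5 was called (1.74% of all genes apart). With classes clustered on all variable genes, which leaves out the Npy and Fbln2 state, Hmga2 was called lower in both pairs, at log2 ratios of -1.04 and -1.78.

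**Figure D5:**
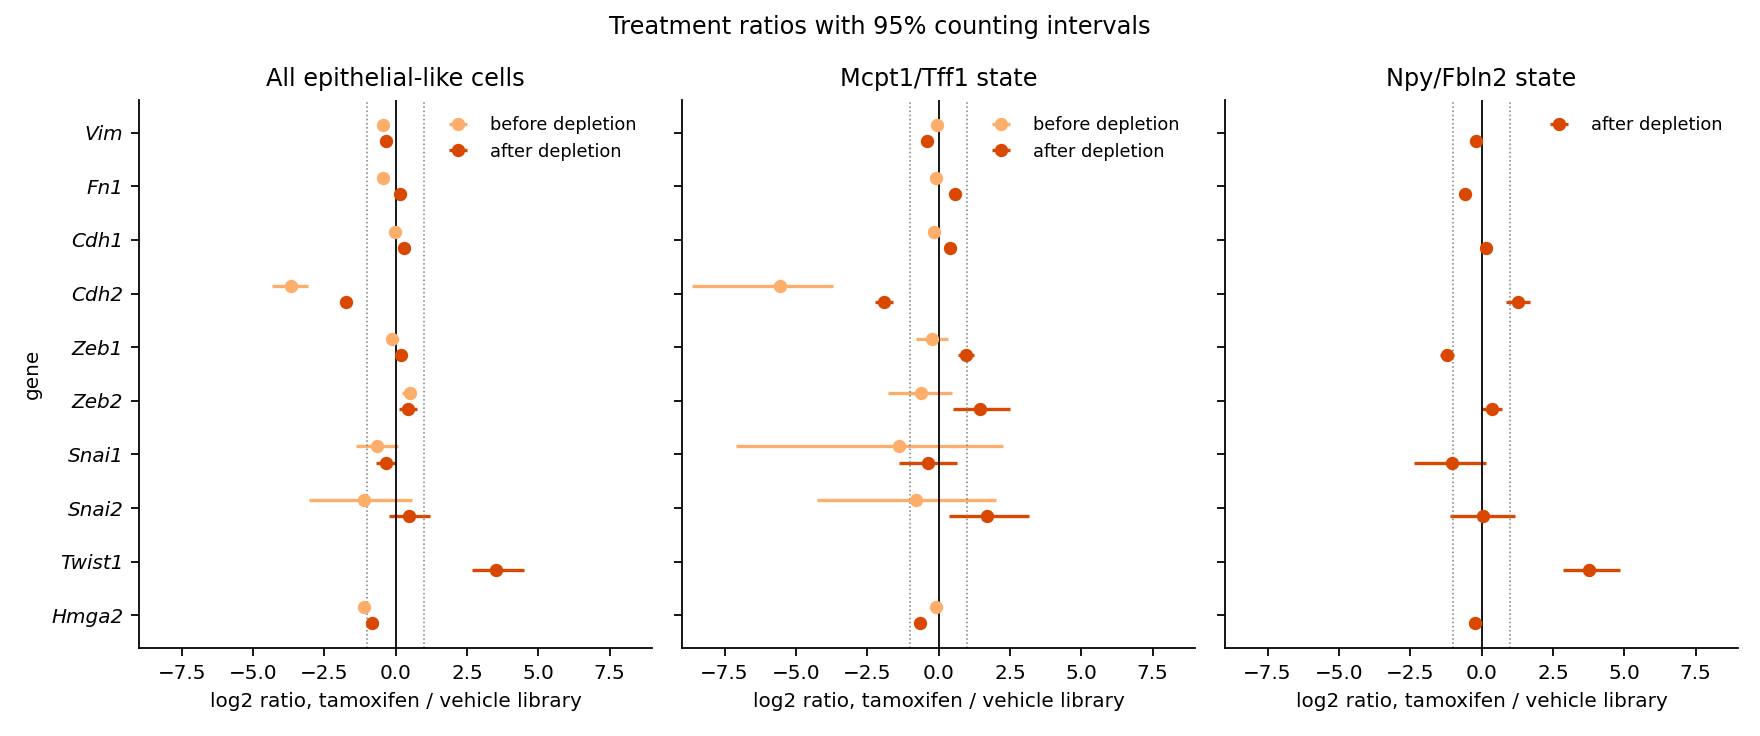
Log2 ratio of tamoxifen over vehicle (x axis) for the 10 genes (y axis) in all epithelial-like cells, in the Mcpt1 and Tff1 state and in the Npy and Fbln2 state (after depletion only), with 95% counting intervals and dotted lines at 2-fold. Cdh2 lies below -1 in both pairs in the whole class and in the Mcpt1 and Tff1 state, but above 1 in the Npy and Fbln2 state.

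Vim was 1.36- and 1.27-fold lower with tamoxifen (log2 -0.45 and -0.34). Fn1 was 1.36-fold lower before depletion and 1.11-fold higher after it, and the Cdh1 log2 ratio was -0.011 (-0.048 to 0.025) before and 0.29 (0.27 to 0.31) after. Zeb1 was also of opposite sign, at -0.14 (-0.32 to 0.039) and 0.19 (0.086 to 0.30). Zeb2 was 1.40- and 1.35-fold higher with tamoxifen. Without the immune-gene-led state, the Zeb2 log2 ratio before depletion was -0.10 (-0.55 to 0.34), on 89 UMIs in each library, so its direction there did not hold. The intervals of Snai1 and Snai2 held 0 in both pairs. Twist1 was at 0 UMIs in both libraries before depletion and at 135 against 12 UMIs after it. The median log2 ratio was -0.32 over the 9 genes with a UMI before depletion and 0.12 over 10 genes after it, beside -0.040 and 0.012 over all genes tested in each pair. These medians include genes under the 10 CPM minimum, and over the 5 genes tested in both pairs they were -0.44 and 0.15.

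The ratio of Vim depended on which small states were included. Without the immune-gene-led state, with 72 against 54 cells before depletion, the Vim log2 ratio was -0.82 before and -0.34 after depletion. Without the Npy and Fbln2 state, which held 4 against 16 cells before and 99 against 111 cells after depletion, the Vim log2 ratio was 0.14 before and -0.49 after, so its direction before depletion turned. Fn1 was then 0.007 and 0.37. Zeb1 was then higher with tamoxifen in both pairs, at 0.32 (0.11 to 0.53) and 0.67 (0.54 to 0.79), so its opposite signs did not remain. Hmga2 without the state was 1.89-fold lower before (26.8 against 50.7 CPM) and 2.33-fold lower after depletion (19.6 against 45.7 CPM). Cdh2 without the state rested on 6 against 190 UMIs before and 149 against 992 after depletion, at log2 ratios of -5.14 and -2.71. The lower Hmga2 and Cdh2 levels were thus also counted in the remaining epithelial-like cells. Without the state, Twist1 had 2 UMIs in each library after depletion. The library pairs also differ in how many cells fell in other states. The Spink1 and Ttr state held 112 and 1147 cells with vehicle against 13 and 113 with tamoxifen. A state led by Gm33055 and Ahsg held 3 and 29 cells with vehicle against 218 and 1746 with tamoxifen. With tamoxifen this state held 26.3% and 29.8% of all UMIs, 1.31% and 3.84% of Hmga2 and 20.8% and 33.7% of Zeb1. Its part in the ratios of the whole class was not tested. With under 50 vehicle cells, it is left out of the comparisons within states, which are given next.

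Within states of at least 50 cells in both libraries of a pair, 13 comparisons were possible. In the Mcpt1 and Tff1 state Cdh2 stood at 0.428 CPM with tamoxifen against 20.4 CPM with vehicle before depletion (2 against 109 UMIs, log2 -5.57, -8.64 to -3.69) and at 4.39 against 16.4 CPM after it (101 against 469 UMIs, log2 -1.90). It was the 1 gene of 6 tested that was called lower there in each pair, where 2.34% and 1.19% of all genes were lower. Cdh2 passes the minimum there through the vehicle cells alone, so its place in the count is no support. Hmga2 in that state stood at 176 against 189 CPM before and at 95.7 against 151 CPM after depletion, so its 2 pairs differed. In the Spink1 and Ttr state after depletion, Hmga2 stood at 2.20 against 44.9 CPM (10 against 1601 UMIs), which is 20.4-fold lower with tamoxifen, and Cdh2 at 2.65 against 13.9 CPM (12 against 497 UMIs). Both of these were called lower there among 5 genes tested (1.91% of all genes lower), but they pass the minimum through the vehicle cells alone, and Cdh1 had a log2 ratio of 0.032.

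In the Npy and Fbln2 state after depletion the direction of Cdh2 was the other one, with 52.8 CPM with tamoxifen against 22.0 CPM with vehicle (log2 1.26, 0.85 to 1.69). Twist1 stood at 42.8 against 3.14 CPM (13.6-fold) and Zeb1 at 70.2 against 162 CPM (log2 -1.21, -1.45 to -0.98). These 3 of 8 genes tested were apart, where 5.22% of all genes were, and Twist1 passes the minimum through the tamoxifen cells alone. Vim (-0.18), Hmga2 (-0.24), Cdh1 (0.14) and Fn1 (-0.58) stayed under 2-fold. The summed mural and fibroblast markers also differed between these pools, at 215 against 34.9 CPM and 83 against 11.6 CPM, and their part in the Cdh2 and Twist1 differences was not tested. In the other states, Fn1 was called lower in the Bex2 and Ryr2 state before depletion (102 against 221 CPM, 1.38% of genes lower there) and higher in type 2-like cells before depletion (97 against 58 UMIs, 0.111% higher). Vim in type 1-like cells was called higher before (38 against 10 UMIs, 4.15% higher) and lower after depletion (67 against 116 UMIs, 0.943% lower). Zeb1 was called higher in a shallow state led by Gm20528 after depletion (53 against 3 UMIs, 8.94% higher), and Hmga2 lower in a state led by immune genes before depletion (60 against 195 UMIs, 2.78% lower). Of these calls, Fn1 in type 2-like cells, Vim in type 1-like cells before depletion and Zeb1 pass the minimum through the tamoxifen cells alone. No gene of the 10 was called in the 3 other comparisons.

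The last comparison set the portions after and before depletion against each other within a treatment. Zeb2 was 6.76-fold (5.48 to 8.35) lower after depletion with vehicle and 7.01-fold (5.88 to 8.38) lower with tamoxifen in epithelial-like cells. It was tested and called in the tamoxifen pair alone, as 1 of 6 genes (0.491% of all genes lower), because with vehicle it stayed under 10 CPM, and it passes the minimum through the portion before depletion alone. None of 5 genes was called with vehicle (0.648% apart) or in both treatments (0.414% apart). An epithelial-like state led by the immune genes Ccl6 and Chil3, with 54, 1, 72 and 0 cells, held 62.3% and 75.3% of the Zeb2 UMIs before depletion. Without it Zeb2 was 2.74- and 1.89-fold lower after depletion. Without the Npy and Fbln2 state instead, Zeb2 was 33.8- and 28.0-fold lower, on 27 against 213 and 45 against 333 UMIs. The immune marker list in all epithelial-like cells stood at 164, 7.72, 159 and 2.72 CPM. Vim was 1.18- and 1.10-fold lower after depletion, and without the immune-gene-led state its log2 ratio was -0.12 and 0.36. Without the Npy and Fbln2 state the Vim log2 ratio was -0.28 and -0.92. Fn1 was 1.47-fold lower with vehicle and 1.03-fold higher with tamoxifen. Cdh1 (log2 -0.32 and -0.015), Hmga2 (-0.32 and -0.039) and Zeb1 (-0.70 and -0.36) were lower or level. Cdh2 was 3.53-fold higher after depletion with tamoxifen, on 313 against 23 UMIs, with an interval holding 0 with vehicle. Twist1 went from 0 to 12 and from 0 to 135 UMIs, at least 11.6-fold with tamoxifen. Median log2 ratios over the 10 genes, tested or not, were -0.28 and 0.01, beside -0.090 and -0.031 over all genes tested.

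Genes of the same programme were described by list. Of 8 further transcription factors, Tcf4, an E-protein partner of helix-loop-helix factors, was lower with tamoxifen in both pairs (25.9 against 84.7 and 32.4 against 76.2 CPM, log2 -1.67 and -1.21), 1 of 2 tested, where 1.32% of all genes were apart in both pairs. None of 7 epithelial regulators tested, 12 junction genes, 9 mesenchymal effectors, 7 genes of the TGF-beta pathway, 1 Hmga2 partner or 2 other cadherins was called, beside the same 1.32%. List medians before and after depletion were -0.16 and 0.13 for the epithelial regulators, -0.042 and -0.085 for the junction genes, 0.13 and 0.028 for the effectors and -0.018 and 0.14 for the TGF-beta genes, beside -0.038 and 0.013 for all genes. Igf2bp2, an RNA-binding protein whose gene is a known Hmga2 target, stood at 8.07 against 18.5 and 9.83 against 20.5 CPM (log2 -1.11 and -0.99), and so missed the rule in 1 pair. Mmp14, a membrane-bound matrix protease, stood at -0.86 and -0.81, and the hyaluronan receptor Cd44 at 0.36 and 0.71. Cdh13, a cadherin without a transmembrane part, stood at -0.66 and -0.40, in the direction of Cdh2.

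In the Npy and Fbln2 state, 8 of 12 mesenchymal effectors tested were higher than in other epithelial-like cells of both libraries after depletion (among them Lgals1, Itga5, Itgb1, Mmp14, Axl, Cd44 and Tnc), with medians of 2.09 and 1.53, where 9.01% of all genes were higher. Itga5, Axl and Tnc pass the minimum through the state alone in at least 1 library. Of the junction genes, 1 of 12 was lower (Marveld3, a tight junction protein), with medians of 0.14 and 0.019. Of the epithelial regulators 2 of 7 were lower (Grhl1 and Ovol1), with medians of -0.92 and -0.96. Among all genes 10.6% were lower, and their medians were 0.11 and 0.12. Marveld3, Grhl1 and Ovol1 pass the minimum through the other epithelial-like cells alone in at least 1 library. Tgfb1, Smad3 and Smad7 were higher among 7 TGF-beta genes tested, beside the 9.01% of all genes. Against fibroblast-like cells, all epithelial-like cells together had 7 of 7 epithelial regulators and 7 of 12 junction genes higher in every library, and 14 of 18 effectors lower, where 11.7% of all genes were higher and 13.8% lower. All of these regulators and junction genes, and 9 of the 14 effectors, pass the minimum through the pool where they are high alone in 1 or more libraries, so these counts are no support.

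Likeness of pattern was measured as Pearson's r of log2(CPM + 1) over 33 pools of 1 state in 1 library, which share libraries and depth, among 9117 genes. The genes most like Hmga2 were Klf12 (0.93), Igfbp3, Spp1, Sema4b and Mirt1 (0.91 each). Those most like Vim were Rgs2, Plekha2, AA467197 (0.93 each), Anxa10 and Aldh1a3 (0.92 each). Fn1 was most like Arhgef40 (0.95) and Smad7 (0.94), then Palmd (0.93), Basp1 and Ptprs (0.92 each). Cdh1 was most like Ptpn14 (0.91), then Fam129b, Wipf2 and Zfp827 (0.89 each) and Ptprj (0.88). Cdh2 was most like Ackr3 (0.89), Tcim and Prrx2 (0.85 each), Map1b and Ugdh (0.83 each). Zeb1 was most like Cep170 (0.84), and Zeb2 most like Fxyd5 (0.88) and Tgfb1 (0.82). Twist1 was most like Npy (0.87), Ctla2a (0.82), Fst (0.79), Xirp2 (0.78) and Fbln2 (0.77), all of which lead the state that holds its UMIs. Twist1 stood at 3.14 and 42.8 CPM in the pools of that state and at 0.220 CPM or less in every other pool. Its correlations therefore rest on that state.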

How the data were processed

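The authors deposited, per the file headers, whole-number UMI counts per gene and cell as 10x matrices made with Cell Ranger 7.0.1; the submitters' processing notes name Cell Ranger 7.2.0 and mm10. Cells with at least 200 genes, at most 20% mitochondrial UMIs and a Scrublet doublet score up to 0.25 (expected doublet rate 0.06) were kept. The automatic doublet threshold marked 188, 1, 1 and 0 cells and was not used, and the score limit removed 225, 120, 116 and 153. Cells of all libraries were clustered together in scanpy 1.11.5 (Leiden, python-igraph 0.11.9) on 2000 variable genes without the 10 EMT genes and 65 listed genes, classes with 40 components at resolution 1 and epithelial states with 30 at resolution 0.5, 15 neighbours. A cluster was named from at least 3 of its markers seen in 10% of its cells; how lists that meet this compete for a name was settled after a first pass. UMIs were summed per pool and scaled to CPM, with exact Poisson, conditional binomial and Clopper-Pearson 95% intervals from scipy 1.17.1. The median depth of epithelial-like cells was 16894 to 29245 UMIs, and intervals cover counting error only. Of the features, 4 were not mouse genes. The size rule was tested on simulated data. Scaling with edgeR 4.0.16 TMM and DESeq2 1.42.0 median-of-ratios factors (R 4.3.3), other pseudocounts, minimums, folds, filters and resolutions were alternatives. Reads shared with near-identical copies or antisense genes were not separated. Promoter windows are from RefSeq (GRCm38.p6), and gene positions from GENCODE M21. The 10 genes and all lists were chosen with earlier results of these data known. Named beside the 10 genes are up to 4 genes per list with 1 sign in both treatment pairs, ranked by the smaller absolute ratio, and for likeness the 5 highest correlations per gene with a mean of at least 10 CPM. An allele that all libraries share and a gene of the wider lists are not reported here.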

Additional observations from a re-analysis of the deposited data

Results flagged for a closer look

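Each of the following was picked out because the counting intervals of a log2 ratio lay on opposite sides of 0 in the 2 library pairs, and in none was the difference between the pairs tested. Fn1 over all epithelial-like cells had a tamoxifen over vehicle log2 ratio of -0.44 before and 0.15 after depletion. The same 4 Fn1 levels give an after over before ratio of -0.55 with vehicle and 0.043 with tamoxifen. In the Mcpt1 and Tff1 state the treatment ratio of Fn1 was -0.083 before and 0.57 after depletion, and that of Cdh1 was -0.17 before and 0.40 after. Vim in type 1-like cells had a treatment ratio of 1.24 before depletion, on 38 against 10 UMIs, and of -1.27 after it, on 67 against 116 UMIs.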

How the results depend on the processing

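Members apart from fibroblast-like cells numbered 9 under most settings and 8, without Cdh2, at 4-fold and with a gate on each cell. Between treatments none of the 10 genes was apart in both pairs, but 1 was with no CPM minimum (Cdh2, lower), at 1.5-fold (Hmga2, lower) and when clustering on all variable genes (Hmga2, lower). Between portions, Zeb2 made it 1 with no minimum. At resolution 0.3 the Npy and Fbln2 state merged into one of 3235 cells, in which 3 genes (Vim, Fn1 and Hmga2) were higher in place of 6. At resolution 1 its 230 cells lay in a state of 842 cells, in which 6 were higher. With states clustered on all variable genes, 210 of its 230 cells lay in a state of 211 cells. Counts over all genes were 2476 against fibroblast-like cells (1280 at 4-fold). Between treatments they were 119, with 74 at a pseudocount of 5 CPM, 213 with no minimum, 298 at 1.5-fold and 13 at 4-fold. Between portions they were 37, with 233 with no minimum, 57 at 1.5-fold, 13 with the gate and, chosen after seeing the data, 11 without the immune-gene-led state. Listed genes apart between treatments numbered 1, and 2 (Tcf4 and Igf2bp2) with TMM factors or a pseudocount of 0.1 CPM. Vim was counted in 13.4%, 8.74%, 14.3% and 8.95% of epithelial-like cells at 5000 UMIs and in 32.7%, 17.1%, 36.6% and 16.7% unthinned. Cdh1 with Vim was counted in 11.5%, 6.30%, 12.4% and 7.04% at 5000 UMIs and in 31.8%, 16.4%, 36.1% and 16.3% unthinned, and in 2.06% of the vehicle library after depletion without the Npy and Fbln2 state. More UMIs per cell or fewer genes and cells tested are part of these settings, and other causes were not tested. No value reversed among those called. The portions before and after depletion are paired by suspension, and their ratios are given within each suspension. A test over both suspensions, which also differ in treatment, was not run. A combined fibroblast and mural class was not run, since no cluster took a mural name. Snai1, Snai2 and Twist1 in epithelial-like cells are limited by depth, with 0 to 156 UMIs per library.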
